A study of Mus musculus with 20 samples.

Results

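The adenylyl cyclases are the enzymes that make cyclic AMP from ATP. The genes described here are the 8 members Adcy1, Adcy2, Adcy3, Adcy5, Adcy6, Adcy7, Adcy8 and Adcy9, taken by gene symbol from 20239 genes measured on the array. The set was selected on measured log2 values of these arrays, since Adcy1 was among the genes that were lowest in apigenin-treated embryos relative to untreated ones. Apigenin differences of the members are therefore a description: no p is given for them, and where members are counted past a threshold by chow, the count stands beside that of all genes and supports nothing. The tests of members below concern genotype and, for members other than Adcy1, the interaction of genotype with chow. Each member had 1 probe set, no gene was left out for a low level, and all 8 entered every fit.

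The study measured RNA from the forebrain of 20 mouse embryos, 1 embryo per array, at embryonic day 15 by the sample fields. The protocol field gives a slightly later age, the same for all embryos, and which of these ages holds could not be settled here. Ts1Cje males, which carry an extra copy of a distal stretch of chromosome 16 and model part of human trisomy 21, were mated to C57Bl/6J females, so that WT and Ts1Cje embryos came from the same kind of cross. Breeding pairs ate purified powdered chow, either plain or with 2 g of apigenin, a plant flavone, per kg, given as 333 to 400 mg per kg per day from mating onward. Both genotypes were sampled on both chows, which made 4 groups of 5 embryos, each with 3 males and 2 females by the design text. The litter of each embryo was not given in the sources used here, so the 5 embryos of a group may share a dam and p-values may then be too small.

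Membrane adenylyl cyclases are switched on by the stimulatory G protein Gs and relay hormone, transmitter and odorant signals as cyclic AMP, which acts through protein kinase A, Epac and cyclic nucleotide-gated channels. The isoforms differ in their other inputs. Adcy1, Adcy3 and Adcy8 are stimulated by calcium and calmodulin, Adcy2 and Adcy7 by G protein βγ subunits, Adcy5 and Adcy6 are inhibited by Gi and by calcium, and Adcy9 responds poorly to forskolin. In the forebrain Adcy1 and Adcy8 are known for roles in synaptic plasticity and in the refinement of sensory maps, Adcy3 for its place in neuronal cilia and olfactory neurons, and Adcy5 as the main isoform of striatal neurons.

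The upstream sequences of 4 members are shown, those that were past the adjusted threshold as lower on apigenin chow in both genotypes. RefSeq promoter windows of the GRCm38.p6 build were at hand for 6 of the 8 members, and Adcy6 and Adcy8 were not analysed here for sequence. Each sequence is the 250 bases before the annotated start on the gene's own strand, in lower case, with matches to the GC box GGGCGG or its reverse complement CCGCCC in capitals. Adcy1 lies at chr11:7063183-7063432 on the + strand, Adcy3 at chr12:4133147-4133396 on the + strand (the more upstream of 2 windows), Adcy2 at chr13:68999542-68999791 on the - strand, and Adcy5 at chr16:35154614-35154863 on the + strand.
Adcy1: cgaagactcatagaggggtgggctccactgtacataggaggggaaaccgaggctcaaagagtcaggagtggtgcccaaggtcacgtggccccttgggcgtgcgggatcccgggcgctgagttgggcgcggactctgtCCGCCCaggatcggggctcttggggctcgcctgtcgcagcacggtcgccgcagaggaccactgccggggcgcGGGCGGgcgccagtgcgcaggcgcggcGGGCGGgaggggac
Adcy3: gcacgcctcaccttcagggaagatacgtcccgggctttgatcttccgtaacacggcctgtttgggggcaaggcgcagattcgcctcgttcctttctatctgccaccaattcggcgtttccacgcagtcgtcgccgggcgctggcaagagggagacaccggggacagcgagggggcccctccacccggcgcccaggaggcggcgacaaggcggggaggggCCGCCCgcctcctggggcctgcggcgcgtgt
Adcy2: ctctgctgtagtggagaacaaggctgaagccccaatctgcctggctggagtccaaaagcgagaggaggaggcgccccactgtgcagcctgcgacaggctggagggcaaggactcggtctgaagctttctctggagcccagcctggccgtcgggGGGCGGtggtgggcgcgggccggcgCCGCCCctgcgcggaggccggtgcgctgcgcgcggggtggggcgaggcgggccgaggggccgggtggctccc
Adcy5: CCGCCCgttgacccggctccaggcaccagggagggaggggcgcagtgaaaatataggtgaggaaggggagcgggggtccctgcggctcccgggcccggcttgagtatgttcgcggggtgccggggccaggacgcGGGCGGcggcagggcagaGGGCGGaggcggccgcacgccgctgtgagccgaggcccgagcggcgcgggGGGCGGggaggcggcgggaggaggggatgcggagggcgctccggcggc

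All 4 windows held the GC box: 3 matches in Adcy1, 1 in Adcy3, 2 in Adcy2 and 4 in Adcy5. The same letters occurred in 32.7% of all 32851 windows of this length in the table. Neither the cyclic AMP response element TGACGTCA nor its shorter form TGACG, searched on both strands, occurred in these 4 windows, against 1.55% and 17.8% of all windows. The shorter form is contained in the full one, so both counts overlap. Adcy9 held 4 GC boxes and 1 TGACG, and Adcy7, in the most upstream of its 3 windows, held 0 GC boxes and 1 TGACG. The GC content was 71.2% in Adcy1, 68.8% in Adcy3, 73.2% in Adcy2 and 78.0% in Adcy5. Over the 6 windows it ran from 54.0% in Adcy7 to 78.8% in Adcy9. The median over all windows was 52.4%, and the share with a GC box was not taken at matched GC content. These matches describe letters in 1 window per gene and no binding was measured.

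All levels are log2 values made by the authors with RMA, in which 1 unit is a factor of 2, and a level is compared only with the same gene's level in other embryos. On the 20 arrays, pairwise correlations ran from 0.991 to 0.997 and array medians from 7.84 to 7.88. The 7 measured of 8 forebrain identity genes had array means of 9.40 to 9.66 on plain chow and 9.61 to 9.77 on apigenin chow. The 6 midbrain and hindbrain genes had 6.09 to 6.55. These are given as values only, since levels of different probes are not set against each other. Y-linked genes were high on 12 arrays and low on 8, as the design text's sex ratio requires. In the trisomic segment, Dyrk1a was 0.32 ± 0.03 (SE) higher in Ts1Cje than in WT on plain chow and 0.33 ± 0.03 on apigenin chow, and Son 0.50 ± 0.04 and 0.51 ± 0.04, the direction that the genotype labels give. Because whole tissue was measured, fewer cells of a type and less RNA per cell cannot be told apart in any value below.

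Adcy1, a calcium- and calmodulin-stimulated cyclase of developing sensory circuits, had the largest difference of the family between chows. WT embryos on plain chow had Adcy1 levels of 9.57, 9.58, 9.60, 9.66 and 9.70, and Ts1Cje embryos on plain chow 9.53, 9.60, 9.63, 9.65 and 9.79. On apigenin chow the WT embryos had levels of 8.92, 9.04, 9.09, 9.16 and 9.18, and the Ts1Cje embryos 8.91, 8.91, 9.08, 9.08 and 9.10. All 10 plain-chow embryos were above all 10 apigenin-chow embryos, and within a chow the genotypes overlapped. The apigenin difference was -0.54 ± 0.06 (SE, n = 5 per group) in WT, or 68.7% of the plain-chow level on the linear scale, and -0.62 ± 0.06 in Ts1Cje, or 65.0%. In order of group means, Ts1Cje (9.64 ± 0.09, SD) and WT (9.62 ± 0.06) on plain chow differed by less than their spread, as did WT (9.08 ± 0.10) and Ts1Cje (9.02 ± 0.10) on apigenin.

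Adcy3, the cyclase of neuronal cilia, had a smaller difference of the same sign. Its levels were 8.68, 8.72, 8.78, 8.79 and 8.83 in WT on plain chow and 8.66, 8.74, 8.75, 8.77 and 8.82 in Ts1Cje on plain chow. After apigenin they were 8.49, 8.55, 8.59, 8.60 and 8.62 in WT and 8.43, 8.45, 8.49, 8.53 and 8.59 in Ts1Cje. The chows did not overlap in either genotype, and the genotypes overlapped on both chows. The apigenin difference was -0.19 ± 0.04 in WT and -0.25 ± 0.04 in Ts1Cje.

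Adcy8, the third calcium-stimulated member, showed more spread. Its levels were 7.49, 7.54, 7.55, 7.59 and 7.76 in WT on plain chow against 7.30, 7.36, 7.37, 7.46 and 7.58 in WT on apigenin chow. In Ts1Cje they were 7.56, 7.71, 7.73, 7.78 and 7.81 on plain chow against 7.17, 7.37, 7.38, 7.42 and 7.52 on apigenin chow. The chows overlapped in WT and did not in Ts1Cje, where the margin was 0.03. The apigenin difference was -0.17 ± 0.07 in WT and -0.34 ± 0.07 in Ts1Cje.

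Of the βγ-stimulated members, Adcy2 was lower after apigenin and Adcy7 differed little. Adcy2 levels were 8.33, 8.35, 8.54, 8.55 and 8.58 in WT on plain chow and 8.15, 8.16, 8.22, 8.24 and 8.38 in WT on apigenin chow. In Ts1Cje they were 8.46, 8.47, 8.52, 8.53 and 8.65 on plain chow against 8.19, 8.22, 8.30, 8.36 and 8.36 on apigenin chow. WT embryos on plain chow split into 2 low and 3 high arrays, and the highest apigenin-treated WT embryo lay above the low pair. The difference was -0.24 ± 0.06 in both genotypes. Adcy7, an isoform also known from blood and immune cells, ranged from 7.30 to 7.71 in WT and 7.31 to 7.62 in Ts1Cje on plain chow, and from 7.40 to 7.57 and 7.38 to 7.49 on apigenin chow. All its groups overlapped, and its differences were -0.09 ± 0.07 in WT and -0.03 ± 0.07 in Ts1Cje. The 6 microglia markers had array means of 7.60 to 7.76 on plain chow and 7.55 to 7.83 on apigenin chow, and 0 of them passed the threshold by chow in either genotype. Of 5 measured erythroid genes 2 rose in each, with array means of 6.96 to 7.39 on plain chow and 7.77 to 8.25 on apigenin chow. The part of these cells in the Adcy7 levels was not tested.

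The Gi-inhibited pair differed from each other. Adcy5, the striatal isoform, had levels of 8.98, 9.01, 9.03, 9.15 and 9.18 in WT on plain chow and 8.72, 8.73, 8.81, 8.81 and 8.85 in WT on apigenin chow. In Ts1Cje its levels were 9.02, 9.06, 9.08, 9.11 and 9.12 on plain chow against 8.68, 8.69, 8.71, 8.73 and 8.81 on apigenin chow. As for Adcy1 and Adcy3, every plain-chow embryo was above every apigenin-chow embryo. The difference was -0.28 ± 0.04 in WT and -0.35 ± 0.04 in Ts1Cje, the second largest of the family in both. Adcy6, a widely expressed relative, had levels of 8.73, 8.73, 8.74, 8.80 and 8.83 in WT on plain chow against 8.72, 8.74, 8.76, 8.79 and 8.89 on apigenin chow. In Ts1Cje it had 8.63, 8.65, 8.72, 8.75 and 8.80 against 8.67, 8.68, 8.70, 8.73 and 8.76. The chows overlapped almost fully, with a difference of 0.01 in WT (95% interval -0.07 to 0.10), and in Ts1Cje the interval was -0.08 to 0.08.

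Adcy9 ranged from 7.52 to 7.72 in WT and 7.52 to 7.70 in Ts1Cje on plain chow, and from 7.39 to 7.61 and 7.36 to 7.54 on apigenin chow. Its groups overlapped in both genotypes, with differences of -0.12 ± 0.05 in WT and -0.16 ± 0.05 in Ts1Cje. The remaining 2 cyclase genes, outside the choice of members, were Adcy4, a βγ-stimulated membrane isoform, and Adcy10, the soluble bicarbonate-regulated enzyme. Adcy4 means lay between 7.84 and 7.87 and Adcy10 means between 5.49 and 5.57 in the 4 groups, and neither passed the adjusted threshold in any comparison. Group means of Adcy1, Adcy2, Adcy3, Adcy5, Adcy8 and Adcy9 were lower on apigenin chow, in both genotypes, by more than the difference's standard error. That of Adcy7 was so in WT only, and those of Adcy6, Adcy4 and Adcy10 in neither. This cutoff is loose and the share of all genes past it was not taken, so nothing is read from the list.

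**Figure D1:**
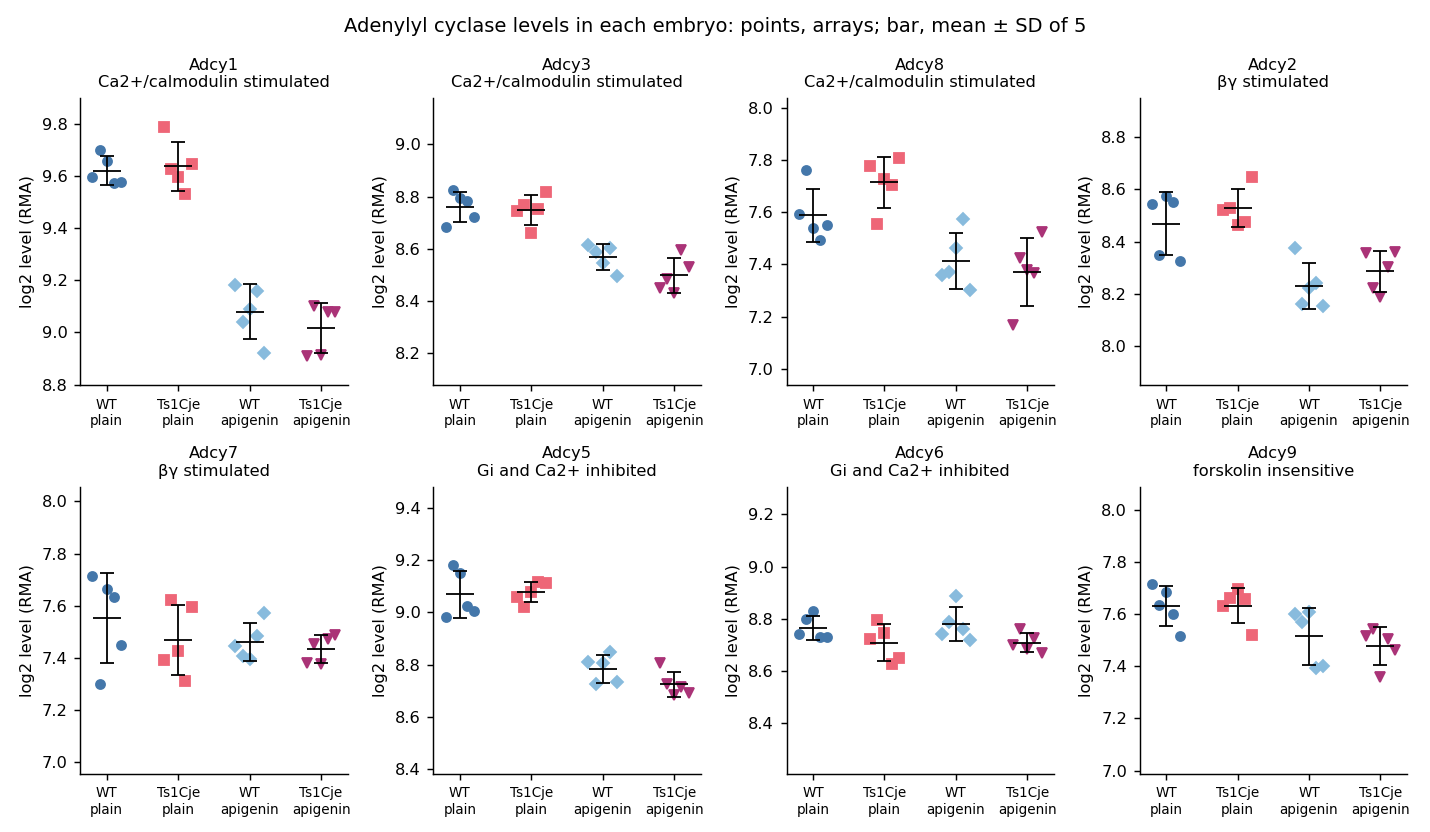
Log2 level of each member (vertical axis, the same span of 1.1 units in every panel) in the 4 groups, with 1 point per embryo and bars for the mean ± SD of 5 embryos. Adcy1, Adcy3 and Adcy5 show no overlap between plain and apigenin chow over the 20 embryos, whereas the groups of Adcy6 and Adcy7 overlap throughout.

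Set against all genes, the choice of members fixes part of these counts, and nothing is read from them. In limma's fit with Benjamini-Hochberg adjustment over all genes, 4 of the 8 members were past the adjusted threshold of 0.05 as lower in WT (Adcy1, Adcy2, Adcy3, Adcy5), where 5.85% of all genes were lower and 6.46% higher. In Ts1Cje 5 were past it as lower (the same and Adcy8), where 8.17% of all genes were lower and 8.09% higher. Both fits had the 4 members Adcy1, Adcy2, Adcy3 and Adcy5 in common, as had 4.93% of all genes. No overlap, with all treated embryos lower, held for 3 members in WT against 4.81% of genes and for 5 in Ts1Cje against 7.02%. The median difference of the 8 members was -0.18 in WT and -0.25 in Ts1Cje, beside medians over all genes of -0.01 and 0.01. No member was past the threshold as higher.

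Treatment and embryo number were not separable, because the labels number the plain-chow embryos from 87 up and the apigenin-chow embryos from 1 to 59. Each chow held a lower and a higher run of numbers (from 87 to 94 and above 94 on plain chow, 1 to 28 and 55 to 59 on apigenin chow), which allowed the differences to be read between each pair of runs. Adcy1 was lower in all 4 pairings, with differences of -0.48 to -0.65, as were Adcy5 (-0.30 to -0.33), Adcy2 (-0.22 to -0.26) and Adcy3 (-0.18 to -0.26). For Adcy1, Adcy3 and Adcy5 the sign could not have differed, because every plain-chow embryo lay above every apigenin-chow embryo. Adcy8 (-0.16 to -0.33), Adcy9 (-0.07 to -0.18) and Adcy7 (-0.04 to -0.08) were also lower in all 4 pairings. For Adcy6 the sign depended on the pairing, from -0.04 to 0.08. The share of all genes that were lower in all 4 pairings was not taken, so nothing is read from these signs. What else a run shares (litter, dissection or array day) was not given in the sources used here.

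By genotype, no member was past the threshold. On plain chow, Ts1Cje minus WT ran from -0.08 ± 0.07 in Adcy7 to 0.13 ± 0.07 in Adcy8, and 0 of 8 members passed at an adjusted p under 0.05 (0.311% of all genes did) or at an unadjusted one (6.69% did). On apigenin chow the differences ran from -0.07 ± 0.04 in Adcy3 to 0.06 ± 0.06 in Adcy2, and again 0 members passed with adjustment (0.311%) or without it (5.23%). Averaged over both chows, 0 of 8 passed with adjustment (0.623% of genes), and 1 of 8 without it (8.92% of genes). That 1 was Adcy6, with Ts1Cje minus WT of -0.06 ± 0.03 and an adjusted p of 0.503 in limma's fit. The exact permutation test of group means, two-sided, gave p from 0.0635 (Adcy6 on apigenin chow) to 0.937 over the 8 members and both chows, where the smallest p that 252 assignments allow is 0.00794. The methods' t-test with adjustment also called 0 members on either chow.

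The intervals show how precisely genotype differences were measured. Each is for 1 gene and 1 comparison, not adjusted for their number, and takes the embryos as independent. If embryos of a group share a dam, the intervals may be too narrow. For Adcy1, the 95% interval of Ts1Cje minus WT was -0.10 to 0.13 on plain chow and -0.18 to 0.06 on apigenin chow. The Adcy8 interval reached highest of the 8 on plain chow, -0.01 to 0.27, and was -0.18 to 0.10 on apigenin chow, where that of Adcy2 reached highest (-0.07 to 0.18). Within runs of embryo numbers, the plain-chow Adcy8 difference was 0.24 between 2 and 2 embryos and 0.05 between 3 and 3. For Adcy6 the sign was negative in all 4 runs, from -0.03 to -0.13. Adcy5 and Adcy9 lie on chromosome 16 but outside the extra stretch: among 679 protein-coding genes of that chromosome in order, Adcy9 is number 15 and Adcy5 number 318, ahead of Sod1 (606), Son (626) and Dyrk1a (656). Averaged over chows, Adcy5 differed between genotypes by -0.03 ± 0.03 and Adcy9 by -0.02 ± 0.04, against 0.51 ± 0.03 for Son in the segment.

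The apigenin differences of the 2 genotypes were compared by the interaction, Ts1Cje minus WT. Of the members tested, Adcy1 left out, none passed with or without adjustment, beside 0% and 2.63% of all genes in the same limma fit. Adcy8 had the largest value, -0.17 ± 0.10 (95% interval -0.37 to 0.03), and Adcy7 the highest positive one, 0.06 ± 0.10. The interaction of Adcy1, given without a test, was -0.08 ± 0.08. Although Adcy8 overlapped between chows in WT and not in Ts1Cje, a difference between the genotypes was therefore not shown, and neither was likeness. The genotype and apigenin comparisons share arrays, so their values for 1 gene are not independent.

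**Figure D2:**
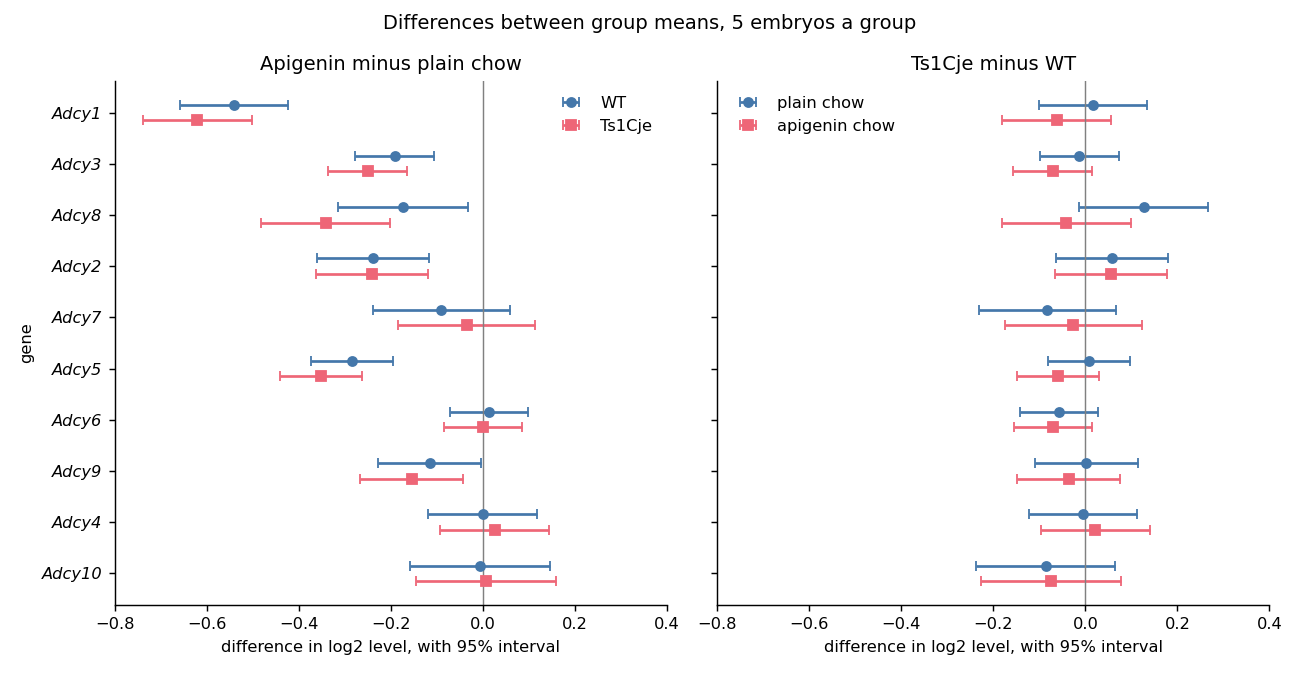
Differences in log2 level (horizontal axis) with 95% intervals for the 8 members and for Adcy4 and Adcy10. The left panel gives apigenin minus plain chow in WT and Ts1Cje, with Adcy1 at -0.54 and -0.62, and the right panel gives Ts1Cje minus WT on each chow, where every interval includes 0.

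Markers of dividing cells moved with chow and lay beside every cyclase difference. All 9 measured of 10 dividing cell genes rose with apigenin in both genotypes in limma's fit, and their mean level per array was 9.19 to 9.53 on plain chow and 9.63 to 9.82 on apigenin chow, with no overlap. Of other lists, 5 of 8 radial glia genes rose in each genotype and 5 and 6 of 6 intermediate progenitor genes, while 5 of 10 neuron genes fell in each. Of 5 measured cortical projection neuron genes 0 fell and 3 rose in Ts1Cje, with 0 past the threshold in WT, and of 6 interneuron genes 2 rose in each genotype while 1 fell in WT and 2 in Ts1Cje. Of 5 oligodendrocyte precursor genes 2 fell in each. Of 9 measured striatal neuron genes, 5 fell and 1 rose in each genotype, with array means of 8.84 to 8.93 on plain chow and 8.57 to 8.72 on apigenin chow. Erythroid genes, of which 2 of 5 rose, had array means of 6.96 to 7.39 and 7.77 to 8.25. Of 7 measured forebrain identity genes, 1 rose in WT and 3 in Ts1Cje, and 0 fell. Microglia and meninges had 0 genes past the threshold, and endothelium 0 of 6 in WT and 1, lower, in Ts1Cje. The part of these cell types in the cyclase differences was not tested in separated cells.

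Within groups, after each group mean was subtracted, the correlation of Adcy1 with the dividing cell level over 20 arrays was -0.49. That of Adcy2 was -0.51, of Adcy7, which differed little by chow, -0.40, of Adcy3 -0.35 and of Adcy8 -0.32. Adcy9 had 0.02, Adcy5 0.14 and Adcy6 0.34. These correlations are descriptions over embryos that share group means and possibly litters. With the dividing cell level as a covariate in the fit, the apigenin difference of Adcy1 was -0.39 ± 0.09 in WT and -0.46 ± 0.09 in Ts1Cje. That of Adcy2 shrank to -0.08 ± 0.09 and -0.07 ± 0.09, and that of Adcy3 to -0.12 ± 0.07 and -0.18 ± 0.07. That of Adcy8 shrank to -0.06 ± 0.11 and -0.22 ± 0.11, and that of Adcy7 turned positive, 0.07 ± 0.11 and 0.13 ± 0.12. Adcy6 had -0.05 ± 0.07 and -0.07 ± 0.07, and Adcy9 -0.12 ± 0.09 and -0.16 ± 0.09. Adcy5 had values of -0.31 ± 0.07 and -0.38 ± 0.07. No member stayed past the threshold in WT, where 4 genes of all passed, and 2 did in Ts1Cje (Adcy1 and Adcy5), where 62 genes of all passed. The dividing cell levels of the chows do not overlap, so this fit separates them only by the slope within groups.

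**Figure D3:**
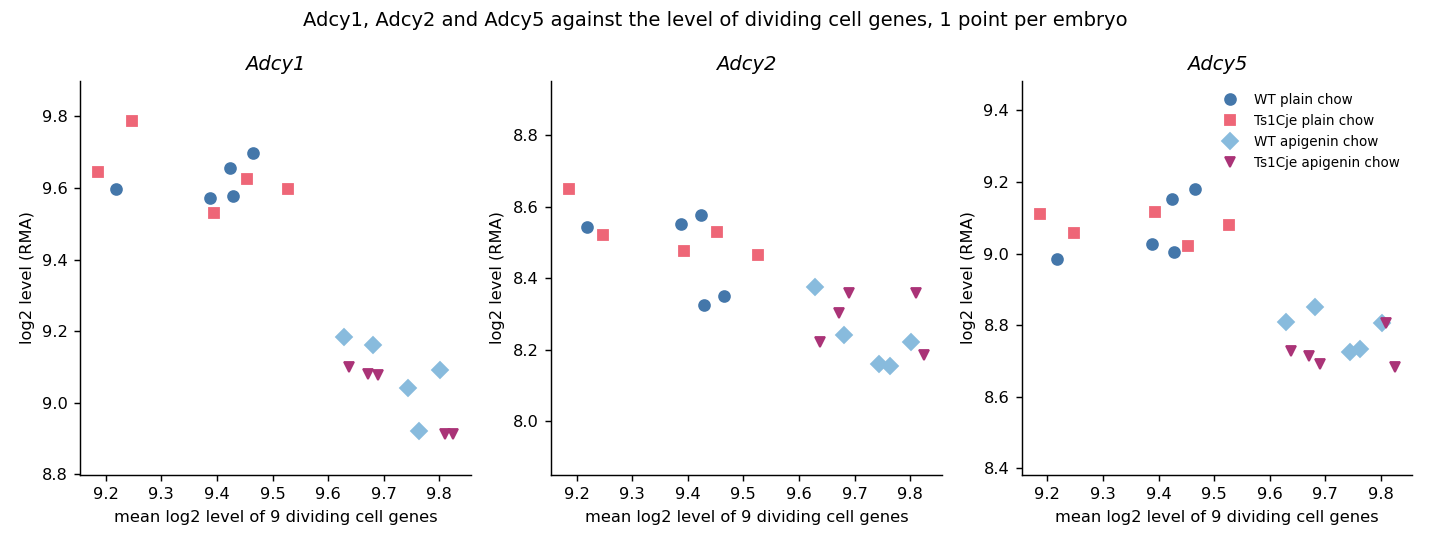
Log2 level of Adcy1, Adcy2 and Adcy5 (vertical axis, equal spans) against the mean log2 level of 9 dividing cell genes (horizontal axis), 1 point per embryo and 1 symbol per group. The chows form separate clouds on both axes for Adcy1 and Adcy5, and the within-group correlation is -0.49 for Adcy1, -0.51 for Adcy2 and 0.14 for Adcy5.

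Members other than Adcy1 followed it to different degrees over the 20 arrays. Pearson's r with Adcy1 was 0.93 for Adcy5 and for Adcy3, 0.83 for Adcy8, 0.81 for Adcy2 and 0.70 for Adcy9, but 0.25 for Adcy7 and 0.05 for Adcy6. The difference between chows enters these values. With group means subtracted, r was 0.60 for Adcy3 and 0.58 for Adcy8, the other calcium-stimulated members, then 0.35 for Adcy6, 0.28 for Adcy2, 0.27 for Adcy5, 0.26 for Adcy9 and -0.06 for Adcy7. The genes of all 20239 most like Adcy1 over the 20 arrays were Tenm2, a synaptic adhesion protein of the teneurin family (r = 0.97), Farp1, Trim67, Necab1, a neuronal calcium-binding protein, and Neto1, an auxiliary subunit of kainate receptors (r = 0.97). With group means subtracted they were Dync1i1, a dynein intermediate chain (r = 0.83), Adamts8, Jazf1, Klk1b5 and Rgs7bp, which anchors regulators of G protein signalling (r = 0.75). Of these, Adamts8 and Klk1b5 had apigenin differences near 0 (-0.04 and -0.02 in WT).

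The rest of the cyclic AMP pathway was read from 9 lists, with 101 measured genes. With apigenin 32 of the 101 fell and 5 rose in WT (median -0.07), and 34 fell and 5 rose in Ts1Cje (median -0.08), beside the shares of all genes given above. By count the Gi-coupled receptors, the longest list, had the most genes that fell, 10 of 22 in each genotype. By share the calmodulin list (5 of 7) and the G protein α subunits (4 of 7) lay above it. Most protein kinase A, anchor and phosphodiesterase genes did not pass. With the dividing cell level as a covariate 0 of the 101 passed in WT and 1, Gabbr2, in Ts1Cje (-0.37 ± 0.07, adjusted p = 0.0397 in limma's fit). No called gene of these lists turned its sign when arrays were quantile normalized again or centred on their medians. Array medians already lay between 7.84 and 7.88, so this rescaling could change little, and nothing is read from it.

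Among G protein α subunits, 4 of 7 fell and 1 rose in each genotype. Gnal encodes Gαolf, the stimulatory subunit of olfactory and striatal neurons. Its mean was 9.66 ± 0.10 (SD) in WT on plain chow and 9.26 ± 0.08 on apigenin chow, and it fell by 0.41 in WT and by 0.47 in Ts1Cje (SE 0.06). Gnao1, the abundant neuronal Gαo, fell by 0.20 and by 0.24 (SE 0.04). Gnai3, a widely expressed inhibitory subunit, rose by 0.20 ± 0.04 and 0.27 ± 0.04. Of 17 measured Gs-coupled receptors and ligands, 4 fell in WT and 5 in Ts1Cje, and 1 rose in each. Adcyap1r1, the receptor for the neuropeptide PACAP, fell by 0.23 and by 0.28 (SE 0.04), and the constitutively active receptor Gpr12 fell by 0.39 and by 0.35 (SE 0.07). The melanocortin receptor gene Mc4r was the 1 that rose, by 0.29 ± 0.07 and 0.33 ± 0.07.

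Gi-coupled receptors, which restrain Gi-sensitive cyclases, had 10 of 22 genes lower and 0 higher in each genotype. Grm3, a metabotropic glutamate receptor, was at 10.35 ± 0.14 (SD) in WT on plain chow and 9.78 ± 0.13 on apigenin chow, and fell by 0.57 in WT and by 0.64 in Ts1Cje (SE 0.09). Gabbr2, a subunit of the GABA-B receptor, fell by 0.50 and by 0.62 (SE 0.06). The dopamine receptor gene Drd2, known from striatal neurons, fell by 0.25 and by 0.44 (SE 0.06). In the calmodulin list 5 of 7 fell and 0 rose in each genotype. The kinases Camk2b, Camk2a and Camk2d fell by 0.36, by 0.26 and by 0.25 in WT, and by 0.39, by 0.25 and by 0.30 in Ts1Cje. Both other genes measured, Calm2 and Calm3, encode calmodulin itself and did not pass.

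Downstream of cyclic AMP, 2 of 9 protein kinase A genes fell in each genotype. Prkar1b, a brain regulatory subunit, fell by 0.40 and by 0.49 (SE 0.06), and the kinase inhibitor Pkia fell by 0.20 and by 0.22 (SE 0.05). Of 9 anchors, Akap7 fell by 0.26 and by 0.36 (SE 0.05), and the nuclear anchor Akap8 rose by 0.17 ± 0.04 and 0.21 ± 0.04. Akap13 rose in Ts1Cje by 0.24 ± 0.04, with 0.11 ± 0.04 in WT, which did not pass (adjusted p = 0.0929 in limma's fit). Of 16 phosphodiesterases, which break cyclic nucleotides down, 3 fell and 1 rose in WT and 4 fell in Ts1Cje. The striatal enzyme Pde10a fell by 0.13 and by 0.19 (SE 0.04), Pde4a fell by 0.12 and by 0.19 (SE 0.04), and Pde8b fell by 0.21 in Ts1Cje, with -0.12 ± 0.05 in WT (adjusted p = 0.124 in limma's fit).

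HCN channels, which cyclic AMP opens more readily, set pacemaker currents in neurons. Of 6 measured genes in their list 2 fell in each genotype: Hcn2 fell by 0.40 and by 0.56 (SE 0.06), and Hcn4 fell by 0.28 and by 0.36 (SE 0.04). In the list of CREB, the transcription factor that protein kinase A activates, and its coactivators, Creb1 rose by 0.21 ± 0.03 and 0.20 ± 0.03. Crtc1, a neuronal coactivator, fell by 0.19 in WT, with -0.14 ± 0.05 in Ts1Cje (adjusted p = 0.0802 in limma's fit). Crtc3 fell by 0.14 in Ts1Cje, with -0.13 ± 0.05 in WT (adjusted p = 0.0777). By genotype averaged over chows, 1 of the 101 pathway genes passed, beside 0.623% of all genes, and 0 passed on either chow alone. That 1 was Crtc3, with Ts1Cje minus WT of -0.15 ± 0.03 (adjusted p = 0.0309 in limma's fit). Its means were 8.92 ± 0.08 (SD) in WT and 8.77 ± 0.07 in Ts1Cje on plain chow, and 8.79 ± 0.05 and 8.63 ± 0.08 on apigenin chow. This call did not outlast the loss of 13 of the 20 arrays, each left out in turn, with adjusted p up to 0.0676. It was kept without WT replicate 2 or Ts1Cje replicates 1, 2 or 3 on plain chow, and without WT replicates 1 or 3 or Ts1Cje replicate 4 on apigenin chow.

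**Figure D4:**
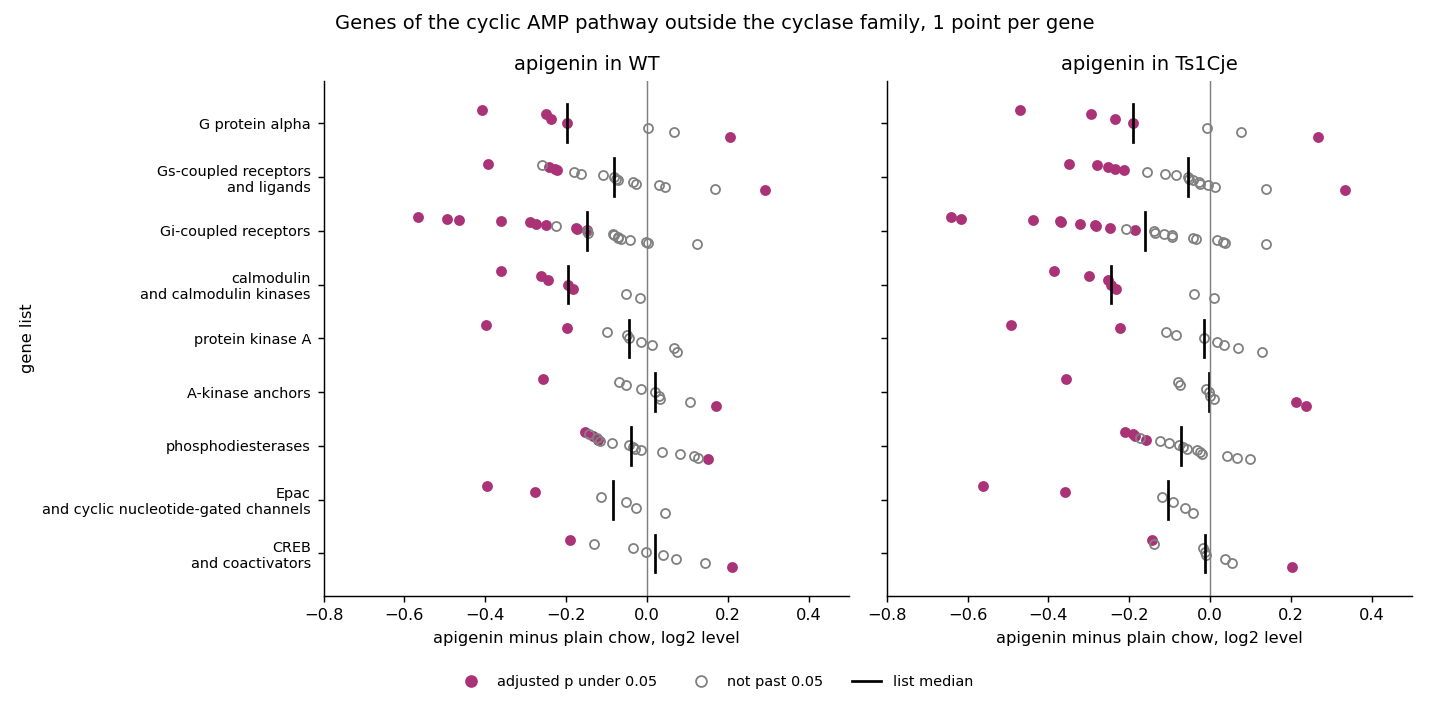
Apigenin minus plain chow in log2 level (horizontal axis) for the 101 measured pathway genes by list, in WT (left) and Ts1Cje (right), with 1 point per gene, filled where the adjusted p was under 0.05, and a black line at each list median. Gi-coupled receptors and calmodulin kinases lie mostly to the left of 0, with list medians of -0.15 and -0.19 in WT, while protein kinase A genes and anchors centre near 0.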

How the data were processed

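Each of 20 embryonic forebrains had 1 Affymetrix Mouse Gene ST 1.0 array. The deposited log2 levels came from RMA, per the submitters' processing notes, whose version and chip definition are not given here. RMA evens out the arrays' distributions and compresses low values, so differences of dim genes are understated. Of 21225 probe sets, 20239 had 1 gene symbol in the platform annotation, 0 several, and 986 stay unnamed. The number of arrays limits the precision.

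In R 4.3.3, limma 3.58.1 fitted 1 mean for each of 4 groups over all 20 arrays, and p-values, two-sided, were adjusted after Benjamini and Hochberg across the 20239 genes, with 0.05 as the threshold. The fit was tested on simulated data. Members, gene lists and alternatives were chosen with earlier results of these data known. Named pathway genes are up to 3 per list with the smallest p for apigenin among those past the threshold, and any past it by genotype. Alternatives were other tests and thresholds, a filter on the dimmest 40% of genes, renewed scaling, array weights, another prior, embryo number runs, Y-linked and dividing cell levels as covariates, and leaving out each array. Every title names the strain Ts1Cje, so groups come from the genotype and treatment fields. Some listed genes were not analysed here.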

Additional observations from a re-analysis of the deposited data

How the results depend on the processing

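With the dividing cell level as a covariate, 0 members were past the threshold for apigenin in WT and 2 in Ts1Cje, against 4 and 5 without it; of all genes, 4 and 62 passed in that fit. Under the other alternatives these counts stayed within 3 to 4 and 5 to 6. Other thresholds aside, 1574 to 3066 of all genes passed in WT in those fits and 3087 to 3963 in Ts1Cje. Those were of 20239 genes, or of 12143 without the dimmest 40%. Leaving out each array gave 4 to 5 and 5 to 6 members, with 1906 to 2508 and 2539 to 3532 of all genes. The choice of members fixes part of these counts, and nothing is read from them. No member passed by genotype under any alternative run. Nor did any of the members tested by interaction, Adcy1 not being among them. Several genotype and interaction values near 0, none past the threshold, changed sign. So did apigenin values of Adcy6 and Adcy7, also not past it. With the dividing cell covariate Adcy7 had 0.07 in WT and 0.13 in Ts1Cje, and Adcy6 -0.05 and -0.07. With each array left out, Adcy6 ranged from -0.0143 to 0.0285 in WT and from -0.0204 to 0.0222 in Ts1Cje. Adcy7 in Ts1Cje ranged from -0.0746 to 0.00283. Leaving out each array, Ts1Cje minus WT on plain chow ranged from -0.0202 to 0.0434 in Adcy1, from -0.0328 to 0.00913 in Adcy3, from -0.0139 to 0.0354 in Adcy5 and from -0.0262 to 0.0305 in Adcy9, and on apigenin chow from -0.0790 to 0.0102 in Adcy8 and from -0.0431 to 0.000885 in Adcy7. The interaction ranged from -0.0296 to 0.0334 in Adcy2 and from -0.0330 to 0.0144 in Adcy6. The Adcy2 interaction was also positive after renewed quantile normalization (0.00494), median centring (0.00295), array weights (0.00132) and the dividing cell covariate (0.00927); the cause was not tested. Replicate numbers only name embryos in accession order. No paired analysis was possible because the labels pair no embryos across groups.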
